A study of Homo sapiens with 6 samples.

Results

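NT5E is the gene of CD73, an enzyme held on the outer face of the cell membrane by a glycolipid (GPI) anchor. Its members here were the 6 probe sets that carry the name NT5E in the authors' deposited table, together with the unbroken run of consecutive probe set numbers around them, from 8120968 to 8120978. That run held 11 of the 257430 probe sets in the value table, and 5 of its 11 probe sets carry no gene name. The array was an Affymetrix whole-transcript array, which measures a gene with many short probe sets spread along its transcript. Values are log2 expression, so that a difference of 1 unit is a 2-fold difference.

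The cells were HCT116, an established human colon carcinoma line. For 48 h they were infected with lentivirus that delivered a short hairpin RNA against ERRα (shERRα, 3 arrays) or, as the control, a scrambled hairpin (shscrambled, 3 arrays). Both groups were then kept in puromycin for 48 h and grown in medium without phenol red that held 10% serum. ERRα is the product of ESRRA, a nuclear receptor that activates genes of mitochondrial metabolism. The labels name a single virus against ERRα, so that effects of the loss of ERRα and other effects of the hairpin cannot be told apart. Nothing says whether the arrays called biological replicates came from separate infections, so that the spread between them may be partly technical.

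CD73 removes the phosphate from extracellular AMP and so makes adenosine. It acts after ectonucleoside triphosphate diphosphohydrolases such as CD39, which strip ATP and ADP to AMP outside the cell, and before the adenosine receptors and the enzymes and transporters that clear adenosine. CD73 is present on many epithelial, endothelial, stromal and lymphoid cells, and in tumours it is known as a source of adenosine, which dampens the activity of T cells.

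In the RefSeq annotation of assembly GRCh38.p14, NT5E lies on the plus strand of chromosome 6, from 85450083 to 85495784. The build of the array's own annotation is not given in the sources used here, so the exon that each probe set covers is not known. The 250 bases before the annotated start of NT5E (chr6:85449833-85450082, plus strand, from RefSeq) are shown because the hairpin was aimed at a DNA-binding receptor. The capitals mark the matches to the motifs searched on both strands.

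NT5E upstream: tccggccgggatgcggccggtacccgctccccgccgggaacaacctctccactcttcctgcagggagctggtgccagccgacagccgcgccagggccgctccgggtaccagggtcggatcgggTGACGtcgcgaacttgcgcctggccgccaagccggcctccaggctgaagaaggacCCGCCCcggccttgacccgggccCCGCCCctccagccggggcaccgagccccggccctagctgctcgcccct

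The window was 75.2% G or C. It held 2 matches to the GC box GGGCGG, read on the minus strand and starting 72 and 49 bases before the gene start, a motif that 42.6% of 35116 upstream windows of the same length hold. It held 1 match to the cAMP response half-site TGACG, 127 bases before the start (21.2% of windows), and none to the full element TGACGTCA (1.65%). No match was found to the ERR half-site core AAGGTCA (3.44%), to the shorter nuclear receptor half-site AGGTCA (12.1%), which lies within it, to the hypoxia core ACGTG (18.5%) or to the ZEB1 E-box CAGGTG (17.5%). These counts describe the letters of this window alone.

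The arrays are described first, since they bear on every value. Array medians over all probe sets lay between 4.28 and 4.43 log2 units. shERRα replicate 1 stood apart: over all probe sets it correlated with the others at 0.867 to 0.877, while the 10 pairs that leave it out reached 0.933 to 0.947. The target of the hairpin was lower: the median of the 2 probe sets named ESRRA was 2.29, 2.60 and 2.23 in shERRα and 4.86, 5.10 and 5.28 in shscrambled, and those names also come from the deposited list of differences. The shERRα values lay around the 25th percentile of probe set means, 2.41, near background. The run of 6 that holds both had medians of 3.68, 3.60 and 2.43 in shERRα, against 4.86, 5.10 and 5.28 in shscrambled, a difference of -1.84. limma (Benjamini-Hochberg over all 256180 probe sets used) called 0 probe sets at an adjusted p of 0.05; at an unadjusted p under 0.05 limma gave 6961 higher and 11576 lower, and an equal-variance test 7480 higher and 11084 lower, with 0 after adjustment. With 3 arrays a group, the precision of all values is limited by their number.

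All 11 probe sets of the NT5E run, of which 6 carry its name, were higher in the cells with the ERRα hairpin. The difference between the group means was 0.92 to 1.61 log2 units over the 11 probe sets, or 1.89-fold to 3.05-fold, with a median of 1.42. At 10 of the 11 probe sets all 3 shERRα arrays lay above all 3 shscrambled arrays, and 10 were at least 2-fold higher. Over all probe sets 5.69% were higher without overlap between the groups, 3.72% were at least 2-fold higher and 49.8% had a higher mean in shERRα by any amount. The 6 probe sets were named because of this same contrast, so that all NT5E values below are a description. The unadjusted p-values printed with some of them only place a probe set by the rule of the deposited list and are no test of NT5E. In RNA from a whole culture, more cells with NT5E and more NT5E RNA per cell cannot be told apart.

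The authors' deposited table holds the probe sets that were 2-fold or more apart at an unadjusted p below 0.01, a rule that 0.271% of all probe sets met as higher. In that table NT5E, with the accession NM_002526, had deposited folds of 3.05, 2.95, 2.95, 2.68, 2.60 and 2.23. The deposited p-values lay between 0.000613 for probe set 8120972 and 0.00411 for 8120974. Of 1458 genes in the list, 1123 were listed by a single probe set, and NT5E was among 8 with at least 6 listed probe sets that were all higher.

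**Figure D1:**
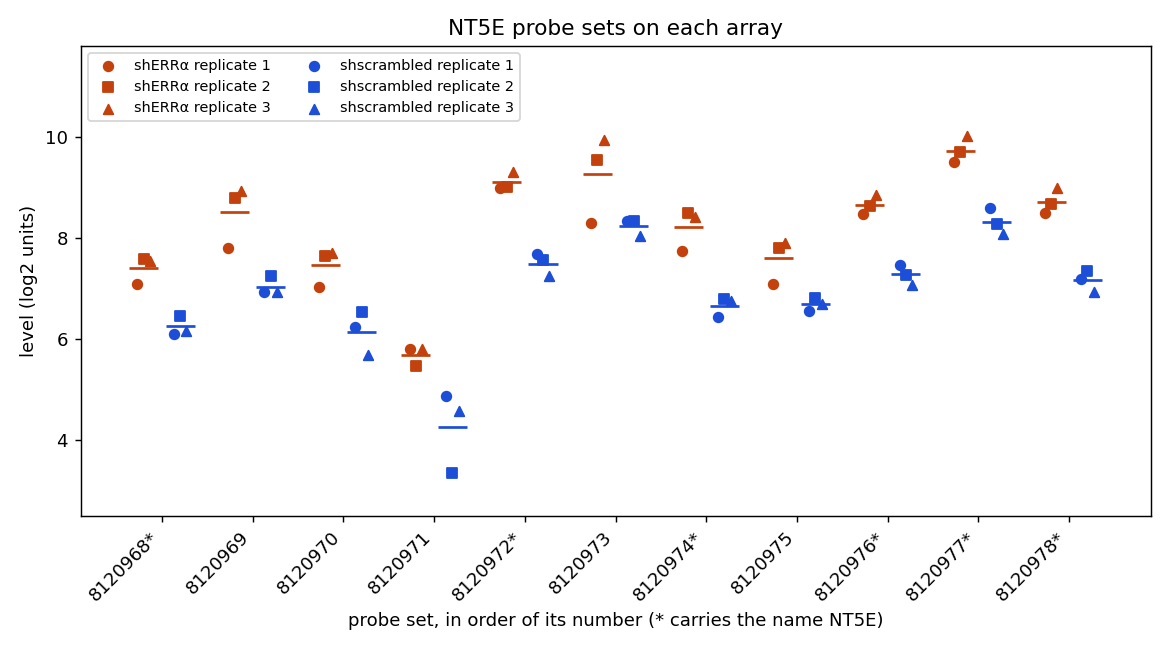
Level of each of the 11 probe sets of the NT5E run (x axis, in order of probe set number, an asterisk marking those named NT5E) in log2 units (y axis) on the 3 shERRα arrays (orange, left) and the 3 shscrambled arrays (blue, right), with horizontal lines at the group means. The groups overlap only at 8120973, and the levels run from 3.35 to 10.01.

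Probe set 8120972 had the widest difference. It measured 8.99, 9.01 and 9.30 in shERRα, against 7.68, 7.56 and 7.24 in shscrambled. The lowest shERRα array lay 1.32 units above the highest shscrambled array, and the means were 9.10 ± 0.18 in shERRα and 7.49 ± 0.22 in shscrambled (SD, n = 3 each).

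Probe set 8120978, the last of the run, measured 8.50, 8.68 and 8.98 in shERRα, against 7.19, 7.35 and 6.94 in shscrambled. Probe set 8120974 measured 7.74, 8.49 and 8.42 in shERRα, against 6.43, 6.79 and 6.75 in shscrambled. Both were 1.56 log2 units higher, and neither had overlapping groups. At both, replicate 1 was the lowest of the shERRα arrays.

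Probe set 8120977 was the brightest of the run in shERRα, with 9.50, 9.70 and 10.01, against 8.59, 8.27 and 8.07 in shscrambled. Probe set 8120976 measured 8.48, 8.64 and 8.86 in shERRα, against 7.47, 7.27 and 7.08 in shscrambled. At both, the shERRα values lay at least 0.91 units above every shscrambled value.

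Probe set 8120968, the first of the run, had the smallest difference among the named ones. It measured 7.10, 7.58 and 7.54 in shERRα, against 6.11, 6.46 and 6.17 in shscrambled, 1.16 log2 units higher. The groups were 0.64 units apart at their closest. It met the rule of the deposited list, with a fold of 2.23 and an unadjusted p of 0.00346.

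The 5 unnamed probe sets of the run did not meet that rule and are not known to belong to NT5E. Nearest to it, probe set 8120969 was 2.79-fold higher with an unadjusted p of 0.0158, and 8120970 was 2.47-fold higher with 0.0164. The others had unadjusted p-values of 0.027 (8120975, which at 1.89-fold also missed the fold), 0.0406 (8120971) and 0.112 (8120973). The folds of 8120969 and 8120970 were inside the range of the named probe sets. Probe set 8120969 measured 7.81, 8.80 and 8.93 in shERRα, against 6.94, 7.24 and 6.93 in shscrambled. Probe set 8120970 measured 7.03, 7.64 and 7.70 in shERRα, against 6.24, 6.53 and 5.69 in shscrambled. The groups overlapped at neither, and replicate 1 was again the lowest shERRα array.

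Probe set 8120971 was the dimmest of the run and the only one at which shERRα replicate 1 was not the lowest of its group. It measured 5.80, 5.47 and 5.80 in shERRα, against 4.87, 3.35 and 4.58 in shscrambled. Here the spread lay in the controls, with an SD of 0.80 in shscrambled against 0.19 in shERRα.

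Probe set 8120975 had the smallest difference of the run, 0.92 log2 units, with 7.09, 7.81 and 7.91 in shERRα and 6.55, 6.82 and 6.69 in shscrambled. At 8120973 the groups overlapped: it measured 8.30, 9.55 and 9.94 in shERRα, against 8.34, 8.34 and 8.03 in shscrambled. shERRα replicates 2 and 3 lay above every control there, and replicate 1 lay 0.04 units below the highest one. The SD within shERRα was 0.86 at this probe set, the widest of the run in that group.

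The difference also varied between the shERRα arrays. Against the shscrambled mean, the median over the 11 probe sets was 1.09 log2 units (2.12-fold) for shERRα replicate 1, 1.39 (2.62-fold) for replicate 2 and 1.69 (3.24-fold) for replicate 3. Replicate 1 was between 0.06 and 1.54 units above that mean, replicate 2 between 1.12 and 1.83, and replicate 3 between 1.23 and 1.90. Replicate 1 was the lowest of the shERRα arrays at 10 of the 11 probe sets, whereas it was the lowest at 27.2% of the 695 probe sets listed higher and at 36.7% of all probe sets. It is the array that stood apart from the others, and its part in the result was not tested. Without it, all 11 probe sets were at least 2-fold higher and none had overlapping groups.

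**Figure D2:**
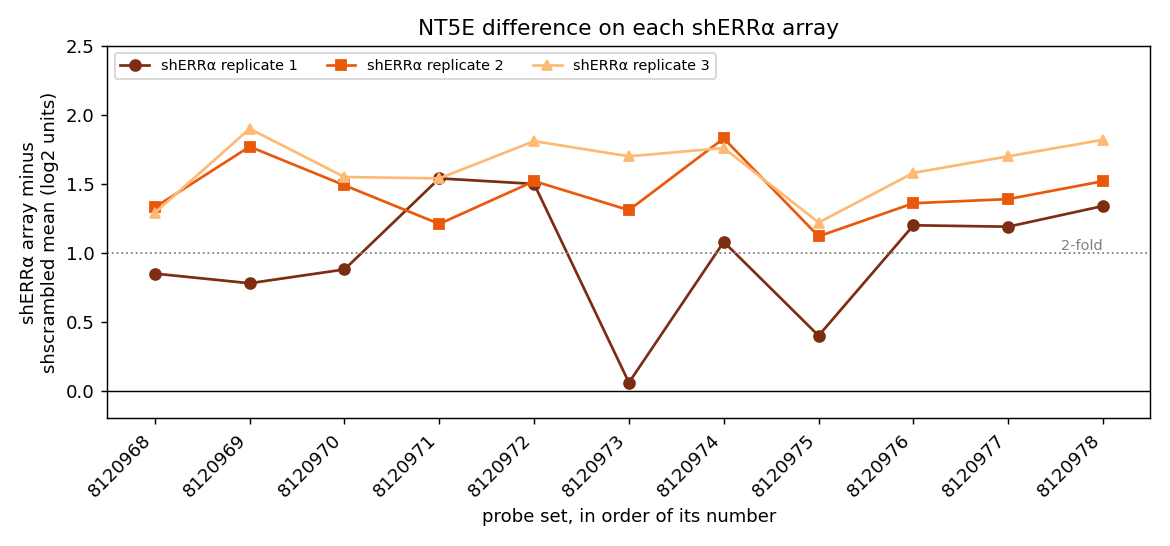
Difference of each shERRα array from the mean of the 3 shscrambled arrays (y axis, log2 units) at each of the 11 probe sets of the NT5E run (x axis, in order of probe set number), with a dotted line at a 2-fold difference. Replicates 2 and 3 stay above that line at every probe set, while replicate 1 drops to 0.06 at 8120973.

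Summed up as the median of the 11 probe sets on each array, the NT5E run was at 7.81, 8.64 and 8.86 in shERRα, against 6.94, 7.24 and 6.93 in shscrambled. That median fell on the unnamed 8120969 on shERRα replicate 1 and on every shscrambled array. On shERRα replicates 2 and 3 it fell on 8120976, which is named NT5E. The spread and the distance between the groups given for it therefore mix different probe sets. The means were 8.44 ± 0.55 in shERRα and 7.03 ± 0.18 in shscrambled (SD, n = 3 each), a difference of 1.40 (SE 0.33), or 2.64-fold. The groups were 0.58 units apart at their closest and 1.40 without shERRα replicate 1. With the mean of the probe sets in place of the median the difference was 1.35 (SE 0.20), with 8.21 ± 0.33 in shERRα and 6.87 ± 0.11 in shscrambled (SD, n = 3 each). The median per array of the 6 named probe sets, which the list chose, gave 1.47 (SE 0.16). That of the 5 unnamed ones gave 0.92 (SE 0.27), because on every array it fell on 8120975, the probe set with the smallest difference, whereas the median of their 5 differences was 1.30.

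How many probe sets of the NT5E run met the rule of the deposited list depended on the arrays. It was 6 with all arrays, 9 without shERRα replicate 1, 3 without shERRα replicate 2 and 3 without shscrambled replicate 3. With the replicate number as a block it was 2.

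Mean levels over the 6 arrays ran from 4.98 to 9.02 log2 units, all above the 25th percentile of probe set means (2.41) and above their median (4.29). Pearson's r between level and difference across the 11 probe sets was 0.07 and Spearman's rho 0.18, a description over probe sets that share the same arrays. Across the 6 arrays the probe sets followed each other, with a median r of 0.93 over their 55 pairs and 35 pairs above 0.9. Probe set 8120971 had the loosest ties, with r of 0.54 to 0.83 to the others, and the remaining 45 pairs lay between 0.78 and 0.998. Much of this likeness is the difference between the groups that chose the gene.

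The nearest probe sets outside the run had small differences. Probe set 8120966 averaged 2.31 in shERRα and 2.57 in shscrambled, a difference of -0.26. Probe set 8120980 averaged 1.69 in shERRα and 1.38 in shscrambled, a difference of 0.31. Both were dim, near or under the 25th percentile, and which gene they measure is not known here.

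Runs of consecutive numbers were then used as a rough stand-in for genes. Of 19182 runs of at least 3 probe sets, 0.313% had a median at least 2-fold higher in shERRα, and 6.66% had a higher median without overlap between the groups. The NT5E run met both and was number 12 by its difference, where the widest was 2.62. Among 10217 runs of at least 10 probe sets, 7 had a wider difference, and every probe set was higher in 0.685%. A share of listed probe sets as high as that of NT5E, 54.5%, was found in 0.0196% of them, counting NT5E, which is the share by which it came to be described.

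**Figure D3:**
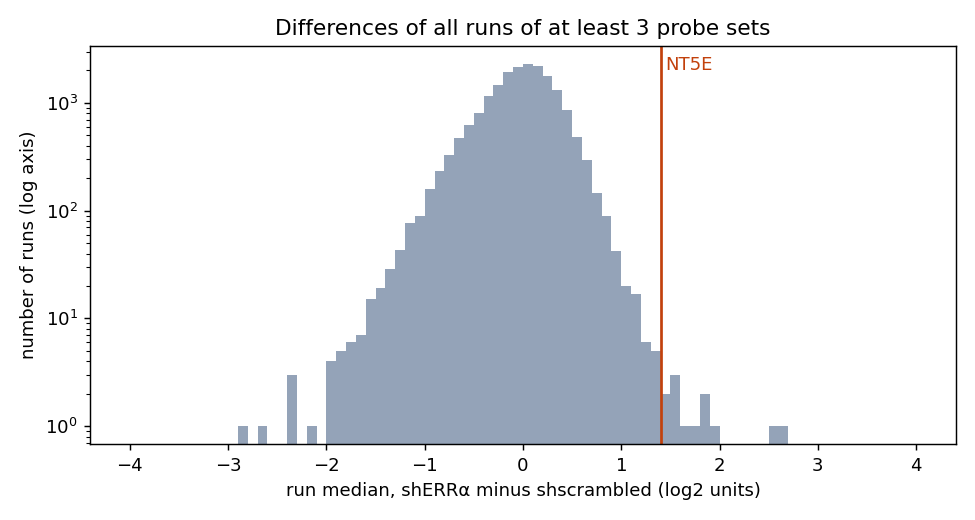
Number of runs of at least 3 consecutive probe sets (y axis, log scale) by the difference of their median, shERRα minus shscrambled, in log2 units (x axis, bins of 0.1). The vertical line marks the NT5E run at 1.40, which only 11 of the 19182 runs exceed.

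The genes that act before and after CD73 were taken from 7 lists of nucleotide and adenosine handling with 78 members. Because only listed probe sets carry names, a member that was not listed could not be looked up. Besides NT5E, 8 of the other 77 members were listed, 3 higher and 5 lower. That is 10.4%, beside 7.83% of all runs of at least 3 probe sets that hold a listed probe set. By direction it is 3.90% higher and 6.49% lower, beside 2.86% of runs that hold a probe set listed higher and 5.12% that hold one listed lower, so that these shares lie near the background. Of all genes listed in 1 direction, 35.0% were higher.

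Among 15 enzymes of the cell surface, ENTPD8 was listed higher and ENPP3 lower, each by 1 probe set. ENTPD8, an ectonucleotidase that hydrolyses ATP and ADP outside the cell, measured 2.59, 2.54 and 2.11 in shERRα, against 1.60, 1.25 and 1.19 in shscrambled at its listed probe set. These levels are near background. The run of 13 that holds it had a median difference of 0.67 (SE 0.18), with 11 of its 12 other probe sets higher. ENPP3, a nucleotide pyrophosphatase, was near background in shERRα (1.05, 1.28 and 1.08), against 3.14, 2.37 and 3.48 in shscrambled. The groups of its run of 27 overlapped, with a median difference of -0.25 (SE 0.35), and 15 of its 26 other probe sets were higher.

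Of the 4 adenosine receptors, ADORA1 was listed higher by 1 probe set. The A1 receptor it encodes lowers cyclic AMP when adenosine binds. It measured 5.35, 5.40 and 5.96 in shERRα, against 4.36, 4.41 and 4.01 in shscrambled, 2.48-fold higher. Its run of 9 had a median difference of 0.65 (SE 0.23), and 6 of the 8 other probe sets were higher.

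Of 17 P2 receptors, which sense extracellular nucleotides, P2RX4 and P2RX6 were listed lower and none higher. P2RX4, an ATP-gated cation channel, had 2 listed probe sets with a median of 3.76, 3.96 and 4.02 in shERRα, against 5.14, 5.34 and 5.46 in shscrambled. Its run of 14 was lower as well, at -1.15 (SE 0.13), with 11 of 12 other probe sets lower. P2RX6 measured 0.57, 1.03 and 0.96 in shERRα and 2.17, 2.70 and 2.30 in shscrambled at 1 probe set, all near background or not far above it, and its run of 14 was at -0.25 (SE 0.20).

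Of 6 genes linked to the removal of adenosine, DPP4 was listed, as lower, by 3 probe sets. DPP4 is a surface peptidase that in humans also binds adenosine deaminase and holds it at the membrane. The median of its listed probe sets was 2.87, 4.18 and 2.87 in shERRα, against 6.87, 6.75 and 6.28 in shscrambled. Its whole run of 27 was at -2.60 (SE 0.48), and 22 of the 24 other probe sets were lower. So the run of NT5E lay above the controls and that of DPP4 below them on the same arrays, and the 2 genes were both chosen from the same list.

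Among 17 intracellular nucleotidases and AMP deaminases, ENTPD7 was listed higher and AMPD2 lower, each by 1 probe set. ENTPD7, an intracellular nucleoside triphosphatase, measured 3.63, 4.12 and 4.24 in shERRα, against 2.62, 2.77 and 2.91 in shscrambled. Its run of 17 was at 0.62 (SE 0.14), with 14 of 16 other probe sets higher. AMPD2, which turns AMP into IMP inside the cell, was near background in shERRα (2.47, 1.26 and 1.38), against 3.77, 4.40 and 4.66 in shscrambled. Its run of 22 was at -0.40 (SE 0.26) with overlapping groups, and 19 of 21 other probe sets were lower. None of 7 nucleoside transporters and none of 12 ATP release channels was listed.

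**Figure D4:**
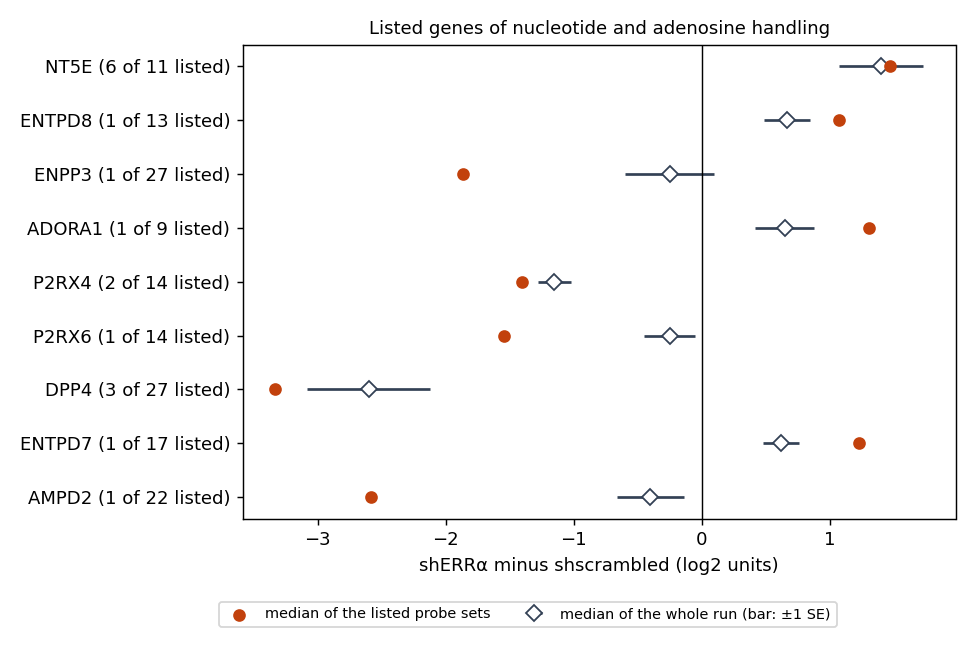
Difference between shERRα and shscrambled in log2 units (x axis) for the 9 listed genes of nucleotide and adenosine handling (rows), as the median of the listed probe sets (orange points) and the median of the whole run (open diamonds, bars ±1 SE over 3 arrays a group). NT5E lies at 1.47 and 1.40, 2 values that share probe sets, since 6 of the 11 in its run are listed and were chosen by this contrast. The single listed probe sets of ENPP3, P2RX6 and AMPD2, in runs of 27, 14 and 22, lie far from their run medians.

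CD73 is carried to the cell surface on its GPI anchor. Of 30 genes that build, attach or remodel this anchor, PIGA and PIGN were listed higher and PGAP1 lower, each by 1 probe set, a share of 10.0% beside the 7.83% of runs that hold a listed probe set. PIGA, a subunit of the enzyme of the first step, was 2.00-fold higher at that probe set with a run median of 0.20 (SE 0.20). PIGN, which adds ethanolamine phosphate to the anchor, was near background in shscrambled at its listed probe set, and its run of 31 pointed the other way at -0.51 (SE 0.55). PGAP1, which removes an acyl chain from the anchor after attachment, had a run of 29 at -0.93 (SE 0.18), with 24 of 28 other probe sets lower.

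Of 48 other GPI-anchored surface proteins, CPM was listed higher and NCAM1 and MSLN lower, each by 1 probe set, or 6.25% beside the same 7.83%. The carboxypeptidase CPM was near background in both groups. Only some forms of the adhesion protein NCAM1 carry the anchor, and its run of 24 had overlapping groups at -0.55 (SE 0.27). MSLN, which encodes mesothelin, had a run of 19 at -0.48 (SE 0.10). None of these 3 had a run that was higher as that of NT5E was.

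NT5E is also used with THY1 and ENG to mark mesenchymal stromal cells. In a list of 6 such surface markers, 2 of the 5 besides NT5E were listed, CD44 and MCAM, both lower, where 7.83% of runs hold a listed probe set and 5.12% one listed lower. So short a list gives no share that can be read against these. CD44, a hyaluronan receptor, measured 7.63, 8.17 and 8.24 in shERRα, against 9.17, 9.35 and 9.43 in shscrambled at 1 probe set. Its run of 23 was at -0.93 (SE 0.21), and all 22 other probe sets were lower. MCAM, an adhesion protein of endothelial and stromal cells, measured 5.97, 5.15 and 4.81 in shERRα and 6.85, 7.21 and 6.94 in shscrambled, with a run of 17 at -0.63 (SE 0.27).

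Of 17 transcription factors linked to NT5E or to states in which it is high, ZEB1 and RUNX2 were listed higher and EPAS1 lower, 17.6% beside the 7.83% of runs, a difference that was not tested. EPAS1, which encodes HIF-2α, was at 5.97, 6.24 and 5.61 in shERRα, against 7.53, 7.52 and 7.44 in shscrambled by the median of 8 listed probe sets, and its run of 21 was at -1.38 (SE 0.41). ZEB1, a repressor of epithelial genes, was at 4.25, 4.28 and 4.92 in shERRα, against 2.44, 2.51 and 2.21 in shscrambled by the median of 2 probe sets. All 14 other probe sets of its run were higher too, while the median of the run of 16, at 0.86 (SE 0.39), had overlapping groups. RUNX2, a factor of bone formation, rested on 1 probe set, and its run was at 0.21 (SE 0.27). None of their links to NT5E was tested.

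Markers of the cells themselves could be looked up only where they were listed. Of 10 epithelial markers CDH1, the gene of E-cadherin, was listed. That is 10.0%, beside the 7.83% of runs that hold a listed probe set. By the median of its 7 listed probe sets CDH1 averaged 5.63 ± 0.55 in shERRα and 7.69 ± 0.03 in shscrambled (SD, n = 3 each). That is a difference of -2.06 log2 units, and its run of 20 was at -1.77 (SE 0.31). Of 19 markers of fibroblasts, endothelial cells and leukocytes, COL3A1, KDR and ITGAM were listed higher and COL1A2 lower, each by 1 probe set, and their runs lay between -0.11 and 0.43. The shares listed were 25% of 8 fibroblast, 25% of 4 endothelial and 14.3% of 7 leukocyte markers, beside the same 7.83%. By direction, 2.86% of runs hold a probe set listed higher and 5.12% one listed lower. Lists this short give no share that can be read against these. The summed level of each whole list and the number of its members at background could not be given, since the unlisted markers have no name here. The part of these markers in the NT5E values was not tested.

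The genes most like NT5E over the 6 arrays were sought among 1469 runs that carry 1 gene name, all of which hold a listed probe set. Likeness was the root mean square distance, in log2 units, between run medians after each was centred on its own mean. The closest was STK40, a protein of the serine/threonine kinase family, at a distance of 0.162, followed by the scaffold protein IQGAP2 (0.208), the metallocarboxypeptidase CPA4 (0.213), FAM222B (0.259) and the polo-like kinase PLK2 (0.266). The median distance over those runs was 0.96.

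The run median of STK40 was 5.37, 6.28 and 6.30 in shERRα, against 4.58, 4.87 and 4.90 in shscrambled, so that shERRα replicate 1 was the lowest of its group as for NT5E. CPA4 had 6.66, 7.47 and 7.52 in shERRα, against 5.89, 5.89 and 5.22 in shscrambled. IQGAP2 had 3.73, 4.02 and 4.39 in shERRα, against 2.89, 2.89 and 2.76 in shscrambled. Replicate 1 was the lowest of the shERRα arrays in all 5, which follows from choosing them for their likeness to NT5E on these arrays. The order of these genes rests on 6 arrays.

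**Figure D5:**
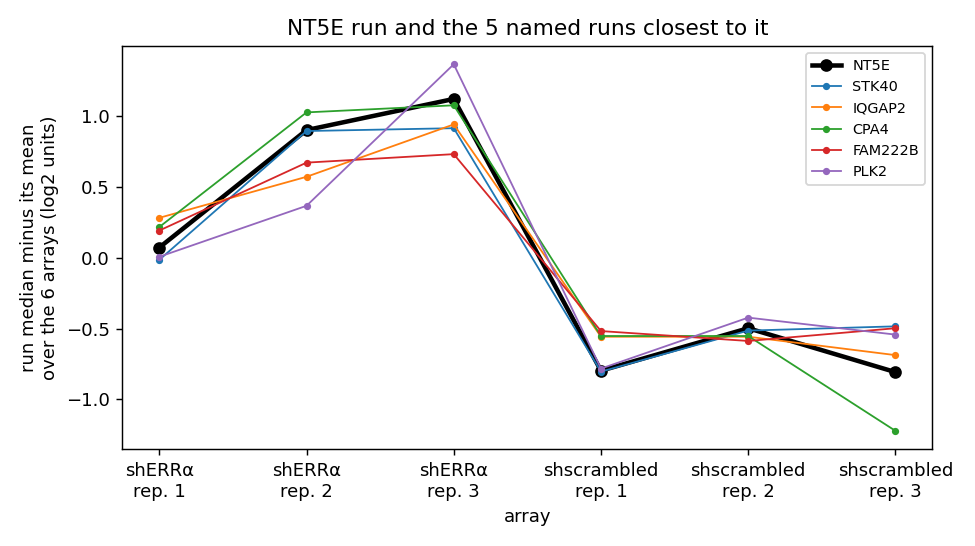
Run median of NT5E (black) and of the 5 named runs closest to it, each minus its own mean over the 6 arrays (y axis, log2 units), on each array (x axis). All 6 lines lie above their mean or close to it on shERRα replicate 1, higher on replicates 2 and 3, and below it on the 3 shscrambled arrays.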

How the data were processed

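The deposited value table holds log2 expression for each probe set and array, which the authors normalised by RMA (per the submitters' processing notes); its version, the annotation and the build are not given here. Its decimal marks were lost. Strings of 7 digits were read as 10 or more, others with 1 digit before the mark; 4.76% of values could be read both ways and took the reading nearer the unambiguous arrays of that probe set; 61 probe sets with only such values were read as low, 12 undecided ones were settled by the deposited fold, and 1250 were left out, leaving 256180. No NT5E value was ambiguous. The reading gave all 2122 deposited folds within 0.001 log2 units and all 2122 p-values within 1%, where for those 12 the fold was matched by construction. The authors' deposited table has a fold change and a p-value per probe set, per the file headers. That the fold is the ratio shERRα to shscrambled, and the p-value that of an equal-variance t-test without adjustment, was taken from this match to the value table. Of its probe sets, 2078 were matched to RefSeq genes (GRCh38.p14) and 33 stayed unnamed.

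Groups and replicate numbers came from the titles. A run ends at a missing number and is summarised by its median per array. limma 3.58.1 in R 4.3.3 (lmFit, eBayes) was fitted to all probe sets, and its code was tested on simulated arrays. SEs come from the pooled spread of 3 arrays a group. No pairing by replicate number was seen: same-numbered arrays had deviations from their group means correlated at 0.07, 0.05 and 0.08. Such values cannot show whether same-numbered arrays were prepared together. NT5E, the lists and their members and the motifs were chosen with earlier results of these data known. Genes named are NT5E, ESRRA, the listed members of each list and the 5 closest runs. Alternatives were each array left out, a replicate block, quantile normalisation, centring, a filter on dim probe sets, a Welch test, array weights, the mean of a run and its unnamed probe sets; overlap of groups was added after the values were seen.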

Additional observations from a re-analysis of the deposited data

How the results depend on the processing

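The NT5E run median difference of 1.40 log2 units kept its direction in every alternative run: 1.19 to 1.71 with an array left out, 1.48 after quantile normalisation, 1.46 with arrays centred, and 0.92 from the unnamed probe sets, whose median fell on 1 probe set on every array (the median of their differences was 1.30). The count of probe sets of the NT5E run past the deposited rule was 6, and 3 to 9 with an array left out. With the replicate block, which leaves fewer degrees of freedom, it was 2. Over all probe sets 695 were higher by that rule, 513 to 906 with an array left out, 392 with the replicate block and 404 with the Welch test. limma called 0 in every alternative. Probe sets of the NT5E run without overlap numbered 10 or 11, and the closest distance between the groups' run medians was 0.58 to 1.40 with an array left out. The array values carry no background measure, so levels near the 25th percentile give no exact fold.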
